A study of Homo sapiens with 21 samples.

Results

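CDH11, CADM1, CD24, DCBLD2, ITGB4, TNS3, MYLK, ARPIN, TIMP3 and ADAMTS2 encode proteins that join cells to one another, anchor them to the matrix, drive the actin cytoskeleton behind these contacts or remodel the matrix outside the cell. They are 10 of the 26485 genes in the count table. They were chosen by the measured mRNA counts, because these differed between cells with an RNF8 hairpin and cells with a control hairpin, with and without the control library that stood apart, so their mRNA differences are given as a description and without a test. The binding of the S9.6 antibody at these genes was tested. Earlier results of these data were known when the genes were chosen, so the independence of these tests from the choice cannot be shown.

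MDA-MB-436 is an established triple-negative breast cancer cell line with a mutated BRCA1 gene, which both groups share. In the shRNF8 group the cells carried a lentiviral hairpin against RNF8 that doxycycline switches on. RNF8 is a ubiquitin ligase that acts at DNA double-strand breaks. The shScr group carried a control hairpin in the same kind of vector and is labelled wild type. The labels name 1 RNF8 hairpin and no rescue, and they give no dose or time of doxycycline, so loss of RNF8 cannot be told apart from other effects of that hairpin or from differences between the transduced populations. Polyadenylated RNA was sequenced in 3 shRNF8 and 3 shScr libraries. S9.6, an antibody that binds DNA-RNA hybrids, was used to pull such hybrids out of sonicated chromatin (DRIP-seq) in 4 shRNF8 and 2 shScr libraries, each with a library treated with RNase, whose kind is given only as a code. Separate cultures are not stated for the libraries of a group, so that the p-values cover the spread between these libraries alone, and this spread may be technical.

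Cells hold on to each other through cadherins and immunoglobulin-like adhesion molecules, and to the matrix through integrins. Inside the cell, adaptors such as tensins link integrins to actin, myosin pulls on the actin filaments, and the Arp2/3 complex builds the branched actin networks that push the cell edge forward. Outside it, metalloproteinases cut the matrix, tissue inhibitors of metalloproteinases restrain them, and procollagen peptidases trim collagen before fibres form. R-loops, in which RNA pairs with one DNA strand and displaces the other, are known to form at many gene starts, often where the strand that reads like the RNA is rich in G.

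The sequence before the gene start is shown for the 3 genes where S9.6 peaks lay at the start in libraries of both groups, and for ADAMTS2, which had none there. RefSeq promoter entries (GRCh38.p14) matched 7 of the 10 genes, CDH11, CADM1 and ITGB4 excepted. Each line reads 5′ to 3′ toward the gene, covers up to 250 bases before the RefSeq start and leaves out bases inside the gene as the count table places it. Runs of 3 or more G are in capitals. All 4 windows are on the minus strand: DCBLD2 at chr3:98901696-98901945, TNS3 at chr7:47582145-47582361, ARPIN at chr15:89912991-89913202 and ADAMTS2 at chr5:179345462-179345711.
DCBLD2: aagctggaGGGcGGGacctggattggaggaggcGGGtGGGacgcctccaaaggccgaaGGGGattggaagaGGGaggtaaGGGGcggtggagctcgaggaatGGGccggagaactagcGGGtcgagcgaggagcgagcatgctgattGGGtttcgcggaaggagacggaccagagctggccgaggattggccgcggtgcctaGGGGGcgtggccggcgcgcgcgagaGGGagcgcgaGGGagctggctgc
TNS3: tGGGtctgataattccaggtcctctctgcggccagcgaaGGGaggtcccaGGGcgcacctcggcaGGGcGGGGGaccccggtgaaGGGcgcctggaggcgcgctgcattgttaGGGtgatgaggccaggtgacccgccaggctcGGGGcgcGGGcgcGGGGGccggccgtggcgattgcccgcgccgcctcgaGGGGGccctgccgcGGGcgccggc
ARPIN: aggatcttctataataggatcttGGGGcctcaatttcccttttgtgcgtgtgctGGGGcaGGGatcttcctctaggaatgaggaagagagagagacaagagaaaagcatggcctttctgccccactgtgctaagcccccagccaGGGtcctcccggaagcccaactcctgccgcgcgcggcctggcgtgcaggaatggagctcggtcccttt
ADAMTS2: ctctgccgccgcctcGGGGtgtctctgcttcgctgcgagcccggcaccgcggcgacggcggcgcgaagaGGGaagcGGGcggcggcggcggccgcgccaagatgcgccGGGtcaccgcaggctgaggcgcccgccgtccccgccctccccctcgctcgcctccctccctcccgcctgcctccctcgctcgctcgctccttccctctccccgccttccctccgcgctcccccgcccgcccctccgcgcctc

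Over the whole 250 bases, the DCBLD2 window held 13 runs of G and 0 runs of 3 or more C, and its GC skew, the excess of G over C divided by their sum, was 0.43. That skew lay at the 99.0 percentile of 35116 RefSeq promoter windows of the same length, whose median was 0.0. The TNS3 window also held 13 runs of G, with a GC content of 76.8% and a skew of 0.14. ARPIN had 6 runs of G, a GC content of 60.4% and a skew of 0.02, close to the median window (5 runs, 58.0% GC). ADAMTS2 had the highest GC content of the 4 at 80.0% (96.7 percentile), but its C-rich strand was the printed one, with a skew of -0.27 (4.79 percentile) and 4 runs of G. The RefSeq windows of CD24, TIMP3 and MYLK lie inside the gene as the count table places it and are not printed. Their RefSeq starts lie 1228, 889 and 263754 bp from the gene start used here. The MYLK window is thus not the sequence before that gene start. These windows also had no S9.6 peak. CD24 held 13 runs of G with a skew of 0.18, TIMP3 7 runs with -0.10 and MYLK 3 runs with -0.06. A G-rich window thus occurred with and without a peak. The motif GGGG was on the printed strand of all 4 windows, as it was in 70.3% of all promoter windows, and on either strand in 87.1%. These matches describe letters and not sites of hybrid formation.

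The RNA libraries held 18121181 to 20006954 counts and detected 17212 to 17835 genes. RNF8 itself had 9.33, 9.99 and 7.94 CPM (counts scaled to library size by TMM) in shRNF8 replicates 1, 2 and 3, against 28.9, 29.1 and 28 CPM in shScr replicates 1, 2 and 3, a log2 fold change of -1.66 (SE 0.13, edgeR adjusted p = 0.000165). On the first principal component, which held 45.16% of the variance, shScr replicate 1 lay at -14.7 and the shRNF8 libraries at -23.4 to -10.7, whereas shScr replicates 2 and 3 lay at 31.2 and 30.4. For this reason the fold change of each of the 10 genes is also given without shScr replicate 1. Those of RNF8 and of the related genes, LOX excepted, are from all 6 libraries. VIM, the intermediate filament of mesenchymal-like breast cancer cells, stood at 1148 to 1280 TPM (counts scaled to exon length and library size) in shRNF8 and 1040 to 1185 TPM in shScr, while CDH1, the epithelial cadherin, was at most 0.0553 TPM in shRNF8 and 0.105 TPM in shScr. Summed over 8 fibroblast markers the level was 2.33 to 3.07 TPM in shRNF8 and 2.95 to 4.91 TPM in shScr, with COL1A2, DCN and LUM at 0 counts in every library. Over 5 endothelial markers it was 2.78 to 3.44 TPM in shRNF8 and 1.89 to 2.52 TPM in shScr, with CDH5 and TEK at 0. The sum over 6 immune markers was 189 to 218 TPM in shRNF8 and 165 to 185 TPM in shScr, nearly all from CD68, with CD3E at 0 in every library. The 10 luminal markers summed to 1296 to 1315 TPM in shRNF8 and 1097 to 1724 TPM in shScr, of which KRT8 and KRT18 made up most and shScr replicate 1 held the highest value. The part of these marker levels in the results was not tested.

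All 10 genes passed the filter on low counts. In the fit over all 14018 genes that passed, 0.97% were called higher and 1.57% lower in shRNF8 (edgeR quasi-likelihood test, Benjamini-Hochberg adjusted p under 0.05), and 6 of the 10 genes were higher and 4 lower, as the choice fixed. Without shScr replicate 1 the background was 12.8% higher and 14.3% lower of 14259 genes, so a call there says less about a single gene. These values chose the genes and are given as a description, with no test. Nearest to the threshold of that choice inside it were ITGB4 (edgeR adjusted p = 0.0451) and ADAMTS2 (edgeR adjusted p = 0.0362), and just outside it among related genes were MYH10, MYL6 and ITGA6 (edgeR adjusted p = 0.0507, 0.0523 and 0.0532). In all 10 genes the CPM ranges of the groups did not overlap, which held for 25.3% of the genes tested. In bulk RNA, fewer cells of a kind and less RNA per cell cannot be told apart.

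**Figure D1:**
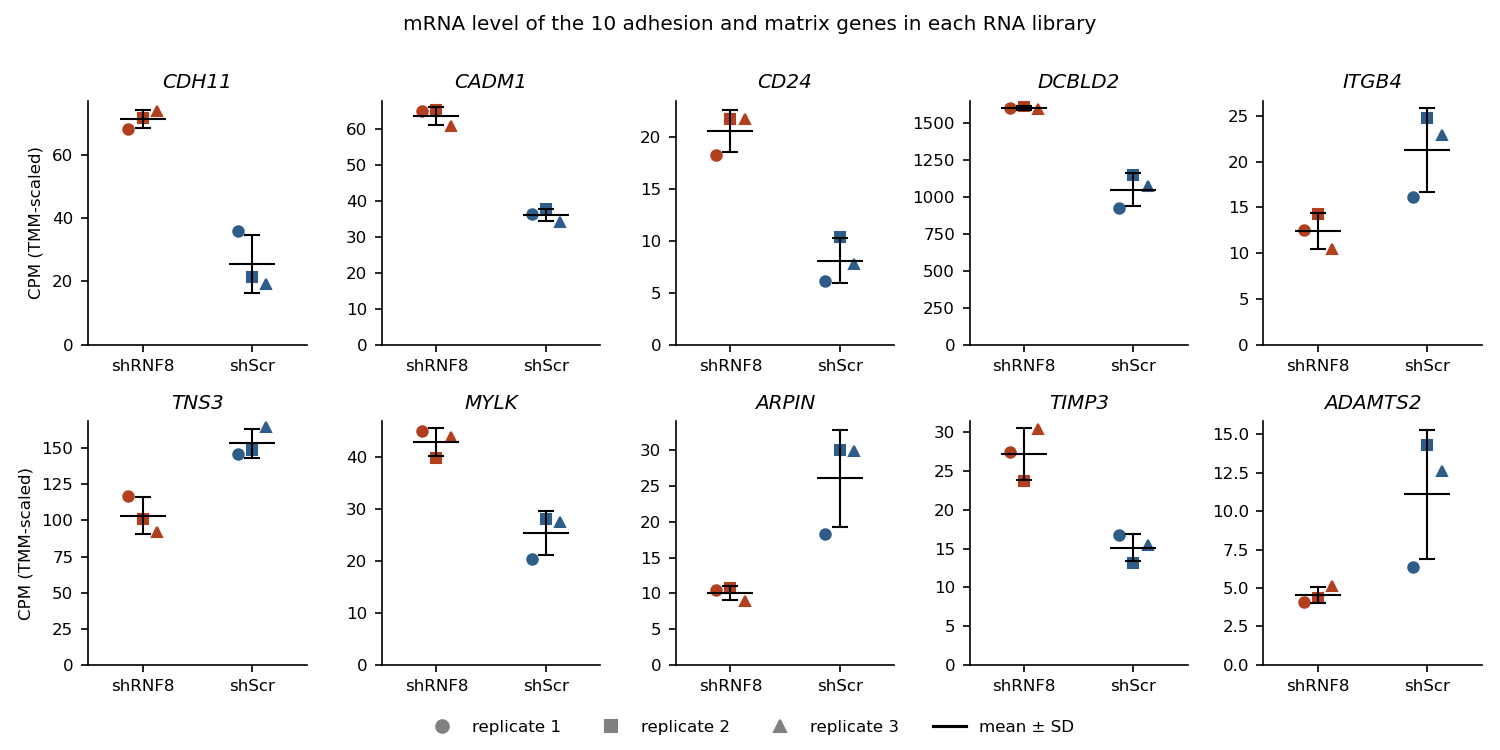
TMM-scaled CPM (y axis, linear, from 0) of each of the 10 genes in the shRNF8 libraries (left, red) and the shScr libraries (right, blue), with a symbol per replicate number and bars for the mean ± SD of 3 libraries. The ranges do not overlap in any panel, and in CDH11, ITGB4, TNS3, ARPIN, TIMP3 and ADAMTS2 the circle of shScr replicate 1 lies nearer to the shRNF8 libraries than the other shScr libraries do.

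The cell-cell adhesion genes CDH11 and CADM1 were both higher in shRNF8. CDH11, a type II cadherin of mesenchymal cells, had 68.2, 71.5 and 73.9 CPM in shRNF8 replicates 1, 2 and 3, against 35.8, 21.4 and 19.2 CPM in shScr replicates 1, 2 and 3. The 3 shRNF8 libraries lay close together, and shScr replicate 1 lay between them and the other shScr libraries. The log2 fold change was 1.48 (SE 0.20), and 1.81 (SE 0.10) without shScr replicate 1, the largest rise of the 10 genes in both fits. CADM1, an immunoglobulin-like adhesion molecule, had 64.9, 65.2 and 60.7 CPM in shRNF8 libraries, against 36.3, 37.6 and 34.1 CPM in shScr libraries. Here shScr replicate 1 sat with its own group, and the log2 fold change of 0.82 (SE 0.09) moved only between 0.79 and 0.86 when any 1 library was left out. It was 0.83 (SE 0.09) without shScr replicate 1.

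The mRNAs of both surface proteins were higher too. CD24, a small glycosylated surface protein used as a marker of breast cell states, had 18.3, 21.8 and 21.8 CPM in shRNF8 libraries, against 6.13, 10.4 and 7.75 CPM in shScr libraries. Its lowest value was that of shScr replicate 1, so its log2 fold change of 1.35 (SE 0.18) was smaller, at 1.19 (SE 0.15), without that library. CD24 has copies elsewhere in the genome, and its reads are uncertain to that extent. DCBLD2, a neuropilin-like transmembrane receptor, was by far the most abundant of the 10, with 1599, 1614 and 1592 CPM in shRNF8 libraries, against 926, 1146 and 1076 CPM in shScr libraries. The log2 fold change was 0.61 (SE 0.10), or 0.53 (SE 0.07) without shScr replicate 1, from 28483 to 31498 counts per library in shRNF8 and 17965 to 21258 in shScr.

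The mRNAs of the matrix receptor chain and the focal adhesion adaptor were lower. ITGB4, the integrin β4 chain that pairs with α6 to bind laminin in hemidesmosomes, had 12.5, 14.3 and 10.4 CPM in shRNF8 libraries, against 16.1, 24.8 and 22.9 CPM in shScr libraries. The gap between shScr replicate 1 and the nearest shRNF8 library was small beside the spread of the shScr libraries. Its log2 fold change was -0.78 (SE 0.18), and -0.94 (SE 0.13) without shScr replicate 1. TNS3, a tensin that couples integrins to actin, had 117, 101 and 92.3 CPM in shRNF8 libraries, against 146, 149 and 165 CPM in shScr libraries. All shScr libraries lay above all shRNF8 libraries, with a log2 fold change of -0.57 (SE 0.10) and of -0.60 (SE 0.09) without shScr replicate 1.

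The mRNAs of the pair of actin regulators moved in opposite directions. MYLK, the kinase that phosphorylates myosin light chain and so promotes contraction, had 45.1, 39.9 and 43.9 CPM in shRNF8 libraries, against 20.5, 28.2 and 27.5 CPM in shScr libraries, a log2 fold change of 0.76 (SE 0.13) that became 0.63 (SE 0.10) without shScr replicate 1. ARPIN, an inhibitor of the Arp2/3 complex, had 10.5, 10.7 and 8.89 CPM in shRNF8 libraries, against 18.3, 30.1 and 29.9 CPM in shScr libraries. As for CDH11, shScr replicate 1 lay between the shRNF8 libraries and the other shScr libraries. ARPIN had the largest fall of the 10 genes, with a log2 fold change of -1.38 (SE 0.19) and of -1.58 (SE 0.12) without shScr replicate 1. Counting did not use strand. Of the exon bases of ARPIN 12.3% are shared with the readthrough gene C15orf38-AP3S2, and of those of MYLK 1.63% with the antisense gene MYLK-AS1.

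The matrix genes also parted. TIMP3, an inhibitor of metalloproteinases that is held in the matrix, had 27.5, 23.7 and 30.4 CPM in shRNF8 libraries, against 16.7, 13.2 and 15.5 CPM in shScr libraries, with a log2 fold change of 0.84 (SE 0.14) and of 0.92 (SE 0.13) without shScr replicate 1. ADAMTS2, which removes the amino-terminal propeptide of fibrillar procollagens, was the lowest of the 10 in level. It had 4.11, 4.36 and 5.14 CPM in shRNF8 libraries, against 6.34, 14.3 and 12.6 CPM in shScr libraries. From 77 to 92 counts in shRNF8 and 123 to 263 in shScr, its log2 fold change was -1.29 (SE 0.27), the widest error of the 10, and -1.56 (SE 0.16) without shScr replicate 1. In that library ADAMTS2 stood at less than in the other shScr libraries, near the shRNF8 range.

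**Figure D2:**
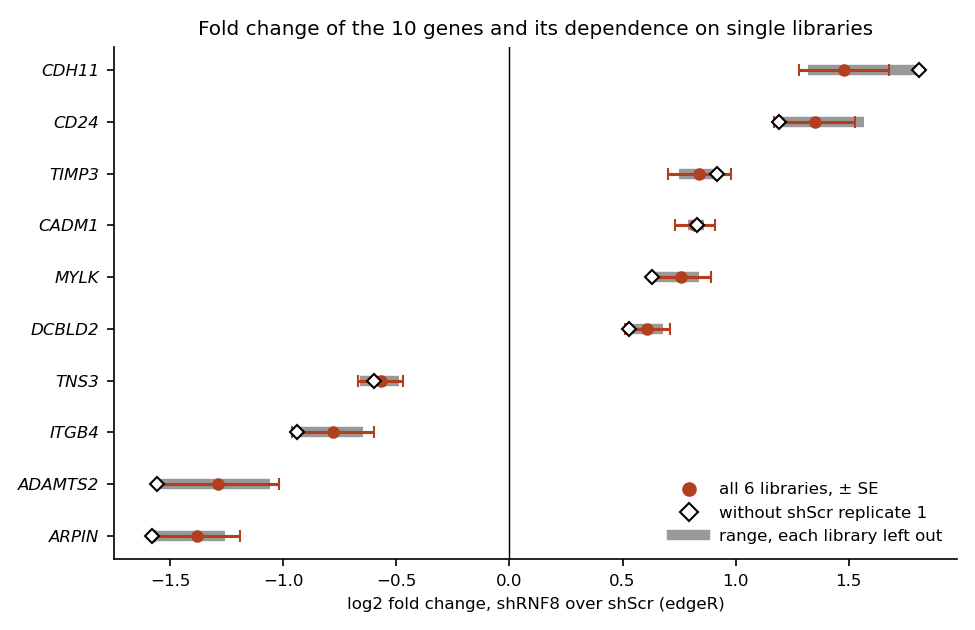
Log2 fold change, shRNF8 over shScr (x axis), of the 10 genes, with the value from all 6 libraries and its SE (red circle), the value without shScr replicate 1 (open diamond) and the range when each library was left out in turn (grey bar). No bar reaches 0, CADM1 has the shortest bar (0.79 to 0.86), and the diamonds of CD24, DCBLD2 and MYLK lie nearer to 0 than their circles.

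Per length, the 10 genes spanned a wide range of levels. DCBLD2 averaged 648 ± 22.1 TPM in shRNF8 and 425 ± 62.1 TPM in shScr (SD, n = 3 each), at the 98.3 percentile of tested genes. TNS3 followed with 33.6 ± 4.96 TPM in shRNF8 and 49.7 ± 4.39 TPM in shScr, and CADM1 with 35.7 ± 2.44 TPM in shRNF8 and 20.2 ± 1.38 TPM in shScr. CDH11 averaged 25.1 ± 0.458 TPM in shRNF8 and 8.91 ± 2.76 TPM in shScr, so that in shRNF8 it stood above CD24 (16.1 ± 1.35 TPM) while in shScr ITGB4 (8.67 ± 2.16 TPM) and ARPIN (9.61 ± 2.80 TPM) lay within its spread. In shRNF8, ITGB4 (5.04 ± 0.902 TPM) and ARPIN (3.68 ± 0.463 TPM) were well below it. ADAMTS2 was lowest in both groups, with 1.58 ± 0.139 TPM in shRNF8 and 3.89 ± 1.58 TPM in shScr, at the 17.2 percentile. Between these, CD24 had 6.35 ± 1.92 TPM in shScr, MYLK 12.9 ± 0.884 TPM in shRNF8 and 7.68 ± 1.57 TPM in shScr, and TIMP3 12.2 ± 1.26 TPM in shRNF8 and 6.78 ± 0.562 TPM in shScr. MYLK and TIMP3 did not differ beyond their spread in either group.

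Most of the other adhesion and matrix genes did not pass the test. In 11 lists of related genes, 209 genes that are not among the 10 were tested, and 6 were higher and 4 lower in shRNF8, or 4.78% against 2.54% of all genes. Their median log2 fold change was 0.00, as was that of all genes. Without shScr replicate 1, 27 were higher and 40 lower, or 32.1% against 27.1% of all genes. With any other library left out, 1 (without shRNF8 replicate 2) to 5 of the listed genes passed. Of the 14 fits tried, LIMS1 passed in all but that without shRNF8 replicate 2, MMP1 in all but those without shRNF8 replicate 2 or 3 and TNS1 in all but those without shRNF8 replicate 1 or 2. L1CAM, MLLT4, COL17A1, MMP15, ADAM19 and NT5E each lost their call without at least 4 of the libraries.

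Among cadherins, catenins and desmosomal proteins 0 of 18 were called, where CDH13 had a log2 fold change of -0.41 (edgeR adjusted p = 0.0608) and the desmosomal cadherin DSC2 one of 0.74 (edgeR adjusted p = 0.0650). At an unadjusted p under 0.05 edgeR passed 5 of these 18, DESeq2 called 2 and limma-voom 0, where over all genes edgeR passed 20.1% unadjusted, DESeq2 called 6.32% and limma-voom 2.35%. Of 19 immunoglobulin adhesion molecules and their adaptors 0 rose and 2 fell. Of these 19, edgeR passed 9 unadjusted, DESeq2 called 5 and limma-voom 2. L1CAM, a neural-type adhesion molecule, fell to 207 ± 25.1 CPM in shRNF8, against 309 ± 48.9 CPM in shScr (edgeR log2 fold change -0.58, SE 0.13, adjusted p = 0.0404). MLLT4, now named AFDN, the adaptor that links nectins to actin, fell to 66.9 ± 3.23 CPM in shRNF8, against 86.6 ± 0.271 CPM in shScr (edgeR log2 fold change -0.37, SE 0.09, adjusted p = 0.0461). Of 7 breast surface markers 1 was called, NT5E, the ectonucleotidase CD73, which rose to 232 ± 12.2 CPM in shRNF8, against 158 ± 15.5 CPM in shScr (edgeR adjusted p = 0.0139). EdgeR passed 2 of these 7 unadjusted, DESeq2 called 2 and limma-voom 1.

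None of the 17 other integrin chains passed. ITGA6, the partner chain of ITGB4, had 142 ± 6.16 CPM in shRNF8 and 111 ± 5.02 CPM in shScr, a log2 fold change of 0.36 (SE 0.08, edgeR adjusted p = 0.0532), while ITGB4 lay on the other side of 0, and ITGA4 had one of 0.30 (edgeR adjusted p = 0.182). Unadjusted, edgeR passed 4 of the 17, against 20.1% of all genes, and DESeq2 called 1 and limma-voom 0. In the hemidesmosome and laminin list 2 of 19 rose and 0 fell. There edgeR passed 7 of 19 unadjusted, DESeq2 called 4 and limma-voom 1, against 20.1%, 6.32% and 2.35% of all genes. The hemidesmosomal collagen COL17A1 rose to 2.65 ± 0.687 CPM in shRNF8, against 0.974 ± 0.222 CPM in shScr (edgeR log2 fold change 1.44, SE 0.32, adjusted p = 0.0402), from 35 to 65 counts in shRNF8 and 14 to 21 in shScr.

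Focal adhesion adaptors had 1 rise and 1 fall among 26. EdgeR passed 7 of these 26 unadjusted, and DESeq2 and limma-voom each called 2. TNS1, a second tensin, rose to between 42.7 and 57.6 CPM in shRNF8 libraries, against 26.5 to 31.9 CPM in shScr libraries (edgeR log2 fold change 0.77, SE 0.13, adjusted p = 0.0116), in the opposite direction to TNS3. LIMS1, the LIM protein that binds integrin-linked kinase, fell to 44.8 ± 4.83 CPM in shRNF8, against 79.1 ± 8.73 CPM in shScr (edgeR log2 fold change -0.82, SE 0.11, adjusted p = 0.00551). Beside MYLK, 0 of 26 genes of actomyosin contraction were called, with the myosin heavy chain MYH10 at a log2 fold change of -0.40 and the myosin light chain MYL6 at one of 0.43. Beside ARPIN, 0 of 27 genes of the Arp2/3 complex and its regulators were called, with WASF3 at -0.37 (edgeR adjusted p = 0.0764) and CORO1C at 0.31 (edgeR adjusted p = 0.135). Unadjusted, edgeR passed 6 actomyosin genes and 4 Arp2/3 genes at a p under 0.05, against 2813 of all 14018 genes. DESeq2 called 2 and 1 of them, against 6.32% of all genes, and limma-voom 0.

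Metalloproteinases and their inhibitors had 1 rise and 1 fall among 16. Of these 16, edgeR passed 6 unadjusted, DESeq2 called 3 and limma-voom 2. The collagenase MMP1 rose to 381 ± 36.4 CPM in shRNF8, against 239 ± 21 CPM in shScr (edgeR log2 fold change 0.67, SE 0.10, adjusted p = 0.00809). The membrane-type enzyme MMP15 fell to 9.36 ± 0.790 CPM in shRNF8, against 15.2 ± 1.47 CPM in shScr (edgeR log2 fold change -0.70, SE 0.14, adjusted p = 0.0265). Of 19 other ADAM and ADAMTS proteases 1 was called, ADAM19, which rose to 29.4 ± 3.90 CPM in shRNF8, against 17.2 ± 1.87 CPM in shScr (edgeR adjusted p = 0.0137). EdgeR passed 6 of these 19 proteases unadjusted, DESeq2 called 2 and limma-voom 1. With all 6 libraries, none of 19 other genes of collagen processing passed with edgeR, DESeq2 or limma-voom. An unadjusted edgeR p under 0.05 was found for 6 of them, against 20.1% of all genes. Without shScr replicate 1, edgeR called 1 of them higher and 6 lower, against 12.8% and 14.3% of all genes. LOX, the collagen cross-linking oxidase, had 2.13, 3.33 and 2.52 CPM in shRNF8 libraries, against 2.52, 12.5 and 10.5 CPM in shScr libraries. In LOX, shScr replicate 1 lay inside the shRNF8 range, and the log2 fold change of -1.67 (SE 0.52, edgeR adjusted p = 0.133) was -2.10 (SE 0.19) without it. LOXL4, of the same enzyme family, had a log2 fold change of 0.48 (edgeR adjusted p = 0.109).

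DRIP-seq asked whether these genes carried DNA-RNA hybrids and whether that differed with the hairpin. The deposited lists gave peaks per library, and the depth behind them is unknown. They held 32358, 34103, 50963 and 48546 peaks in shRNF8 replicates 1, 2, 3 and 4, against 49277 and 38659 peaks in shScr replicates 1 and 2. shRNF8 replicates 3 and 4 stood apart, with 83.5 and 79.0 Mb under peaks, against 39.5 and 34.4 Mb in the other shRNF8 libraries and 47.6 and 43.4 Mb in the shScr libraries. The labels list them as replicates 3 and 4, but the peak names inside these 2 lists carry the stems of replicates 1 and 2. Between any 2 of the 6 lists at most 0.31% of a list's peaks had the same start and end in both, and shRNF8 replicates 3 and 4 shared 109 such peaks with each other. Whether replicates 3 and 4 came from cultures other than those of replicates 1 and 2 was not tested, and each permutation p here counts the 4 shRNF8 lists as separate libraries. Peaks were counted by their summits from 1000 bp before the gene start to 5000 bp after the gene end, and set per 10000 peaks of the library. With 4 libraries against 2 there are 15 splits, so the exact two-sided permutation test cannot give a p below 0.0667.

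Of the 10 genes, 9 had a peak in at least 1 library, with 315 peaks over the 4 shRNF8 libraries and 171 over the 2 shScr libraries. Nearly all lay in 4 of them. TNS3 had 196 in shRNF8 and 85 in shScr, DCBLD2 62 in shRNF8 and 40 in shScr, ITGB4 29 in shRNF8 and 15 in shScr, and ARPIN 18 in shRNF8 and 21 in shScr. These 4 had a peak in all 6 libraries, as had 43.0% of genes tested in RNA. By peaks per length of locus, ARPIN lay at the 92.0 percentile of genes tested in RNA, ITGB4 at 75.6, DCBLD2 at 72.1 and TNS3 at 71.7. CDH11, MYLK, ADAMTS2 and CADM1 lay between 20.3 and 27.2, CD24 at 43.9, and TIMP3 had 0 peaks in all 6 libraries, as had 19.9% of genes tested in RNA. Of the peaks in the 10 loci, 82.9% in shRNF8 and 77.8% in shScr had their summit in an intron. Most of these peaks were in TNS3 (89.3% in shRNF8 and 85.9% in shScr) and DCBLD2 (88.7% and 85.0%). The intron share was lower in ITGB4 (69.0% and 46.7%) and ARPIN (33.3% and 42.9%). It was not computed over all genes. The RNase-treated libraries held 0 peaks in the 10 loci, and of all genes with an S9.6 peak 4.28% had a peak in an RNase-treated library.

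**Figure D3:**
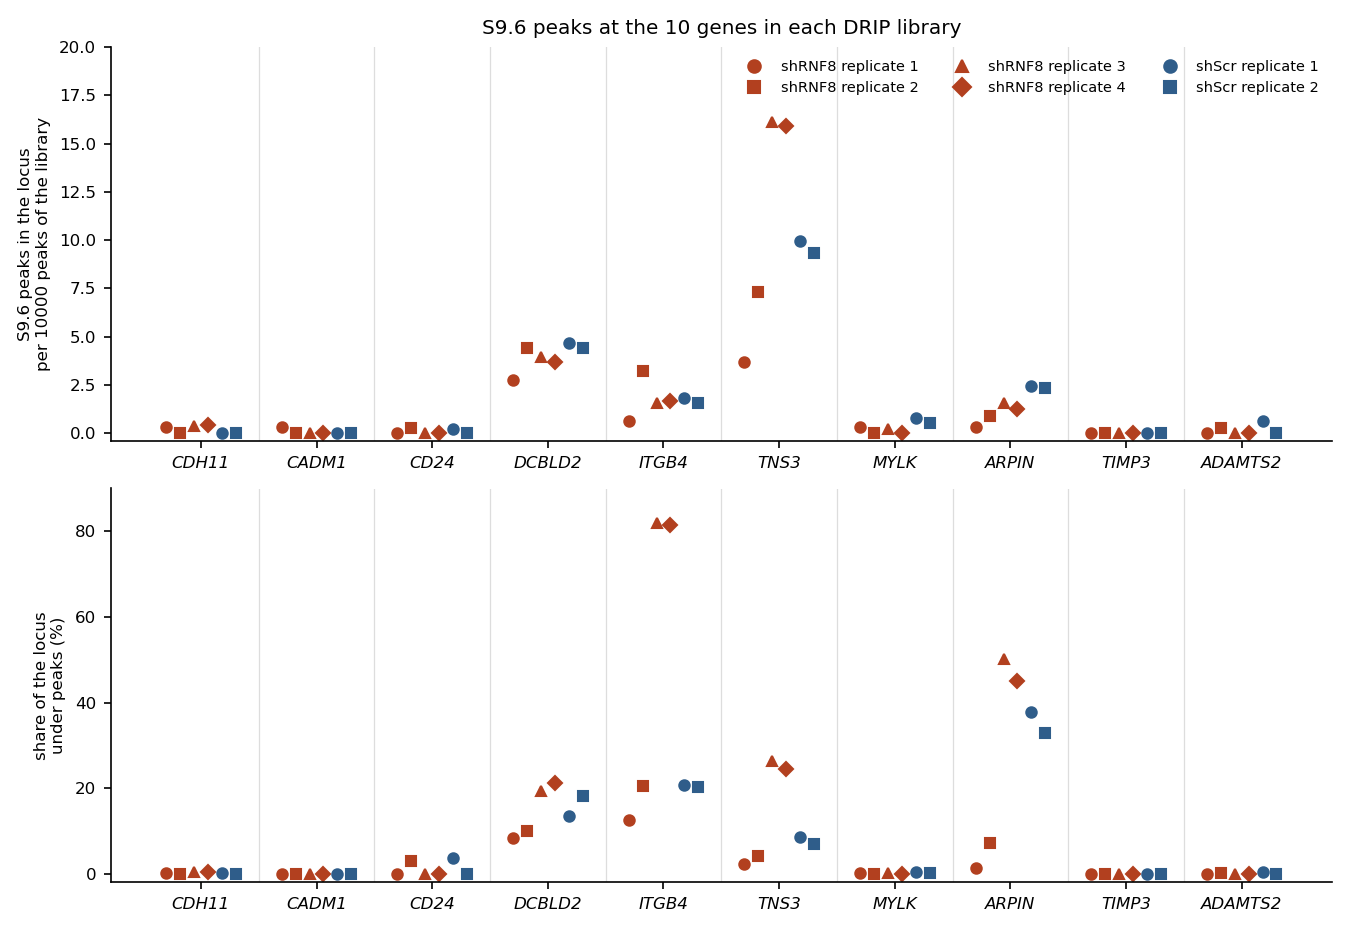
S9.6 peaks in each locus per 10000 peaks of the library (upper panel) and the share of the locus under peaks in percent (lower panel) for the 10 genes, with a point for each of the 4 shRNF8 libraries (red, left) and the 2 shScr libraries (blue, right). DCBLD2, ITGB4, TNS3 and ARPIN stand above the other genes, and shRNF8 replicates 3 and 4 lie far from replicates 1 and 2 for TNS3 in both panels and for ITGB4 in the lower panel.

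DCBLD2 carried a peak at its start in every S9.6 library. The fold of that peak over its local background, as the authors' peak caller gave it, was 15.8, 11.1, 10.7 and 11.8 in shRNF8 replicates 1 to 4, against 11.9 and 11.1 in shScr replicates 1 and 2. The groups overlapped, with a log2 difference of 0.0832 (exact permutation p = 0.933), although the mRNA was higher in shRNF8. The summits lay from 260 bp before to 72 bp after the gene start, in or beside the G-rich window printed above. In its locus, chr3:98790970-98902689 (hg38), DCBLD2 had 2.78, 4.40, 3.92 and 3.71 peaks per 10000 in shRNF8, against 4.67 and 4.40 in shScr (difference -0.829, exact permutation p = 0.267). Merged over the 6 libraries these peaks formed 29 regions, of which 4 were called in all libraries. The start region, chr3:98898924-98904288, was among these 4. An intronic region at chr3:98831350-98834242 also was, with folds of 6.60, 5.92, 9.56 and 9.99 in shRNF8, against 9.43 and 10.6 in shScr. The intronic region chr3:98857330-98859057 was called in 4 of 4 shRNF8 and 0 of 2 shScr libraries, as were 0.73% of all regions. So was chr7:47284383-47285288 in TNS3, with folds of 4.97, 5.0, 5.51 and 3.19 in shRNF8 replicates 1 to 4. The opposite, 0 of 4 shRNF8 and 2 of 2 shScr libraries, held for 2.49% of all regions. In DCBLD2 it held for chr3:98868815-98869664, with folds of 4.11 and 5.42 in shScr, in TNS3 for chr7:47416619-47417475 and in MYLK for chr3:123621548-123621998.

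TNS3 was the other gene with a start peak in every library. A start peak in all 6 was found in 10.0% of genes tested in RNA. Its folds were 13.3, 7.45, 11.2 and 11 in shRNF8, against 8.89 and 4.27 in shScr. Among the gene starts with a peak in all 6 libraries, 9.63% had higher folds in shRNF8 without overlap and 17.9% lower ones, but neither TNS3 nor DCBLD2 did. In TNS3 shRNF8 replicate 2 lay below shScr replicate 1, and the log2 difference of 0.771 did not pass (exact permutation p = 0.133, adjusted p = 0.503 over 1506 gene starts). It was 0.24 without shScr replicate 2 and 1.30 without shScr replicate 1. Along its locus of more than 300 kb, chr7:47270154-47583144, peaks numbered 12, 25, 82 and 77 in shRNF8, against 49 and 36 in shScr. Per 10000 peaks that was 3.71, 7.33, 16.1 and 15.9 in shRNF8, against 9.94 and 9.31 in shScr, so that the shRNF8 libraries fell on both sides of the shScr libraries. The difference of 1.12 (exact permutation p = 0.867) became -4.11 without shRNF8 replicates 3 and 4 and 6.35 without shRNF8 replicates 1 and 2. The start region was chr7:47575036-47584745, and 4 of its 110 regions were called in all 6 libraries.

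ARPIN, the gene with the largest fall in mRNA, also had fewer S9.6 peaks in shRNF8. Peaks in chr15:89891532-89913990 numbered 1, 3, 8 and 6 in shRNF8, against 12 and 9 in shScr, or 0.309, 0.880, 1.57 and 1.24 per 10000 in shRNF8, against 2.44 and 2.33 in shScr. The groups did not overlap, and the difference was -1.38 per 10000 (-1.79 without shRNF8 replicates 3 and 4), with an exact permutation p of 0.0667, the smallest that these 15 splits can give, and an adjusted p of 0.727 over 13869 genes. Groups without overlap in the direction of fewer peaks in shRNF8 were found in 9.15% of these genes, and in ARPIN and MYLK among the 10. The opposite direction was found in 6.32% of genes and in 0 of the 10. The start peak was absent in shRNF8 replicate 1 and had folds of 3.23, 3.74 and 3.77 in replicates 2, 3 and 4, against 8.78 and 6.75 in shScr. The folds of shRNF8 replicates 2, 3 and 4 thus lay below both shScr folds. The median fold of all peaks was 5.13, 4.66 and 4.44 in these shRNF8 libraries, against 5.03 and 5.31 in shScr. ARPIN is not among the 1506 gene starts with a peak in all 6 libraries. How many other gene starts had such an order of folds was not computed. The share of the locus under peaks did not follow this order, with 1.40%, 7.12%, 50.2% and 45.0% in shRNF8, against 37.9% and 32.8% in shScr. In shRNF8 replicates 3 and 4 the peaks were fewer and wider. The start region was chr15:89911680-89913195.

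In ITGB4 the libraries differed in where the peaks lay, and place was not tested between the groups. In chr17:75720436-75762818 it had 2, 11, 8 and 8 peaks in shRNF8, against 9 and 6 in shScr. That came to 0.618, 3.23, 1.57 and 1.65 per 10000 in shRNF8, against 1.83 and 1.55 in shScr (difference 0.0761, exact permutation p = 0.867). A region over the last exons and beyond the gene end, chr17:75748694-75760317, was called in all 6 libraries, with folds of 13.5, 8.0, 9.23 and 11.7 in shRNF8, against 12.4 and 9.31 in shScr. At the gene start, shRNF8 replicates 2, 3 and 4 had peaks with folds of 4.84, 8.90 and 8.07, against none in shRNF8 replicate 1 and in the shScr libraries. In shRNF8 replicates 3 and 4 these peaks were 6730 and 6665 bp wide, and peaks covered 81.9% and 81.5% of the locus, against 12.5% and 20.6% in shRNF8 replicates 1 and 2, and 20.7% and 20.3% in shScr. Wide peaks were not particular to this locus. Over the genome 6.43% and 6.29% of peaks in shRNF8 replicates 3 and 4 were 5000 bp or wider, against 2.29% to 3.91% in the other S9.6 libraries.

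**Figure D4:**
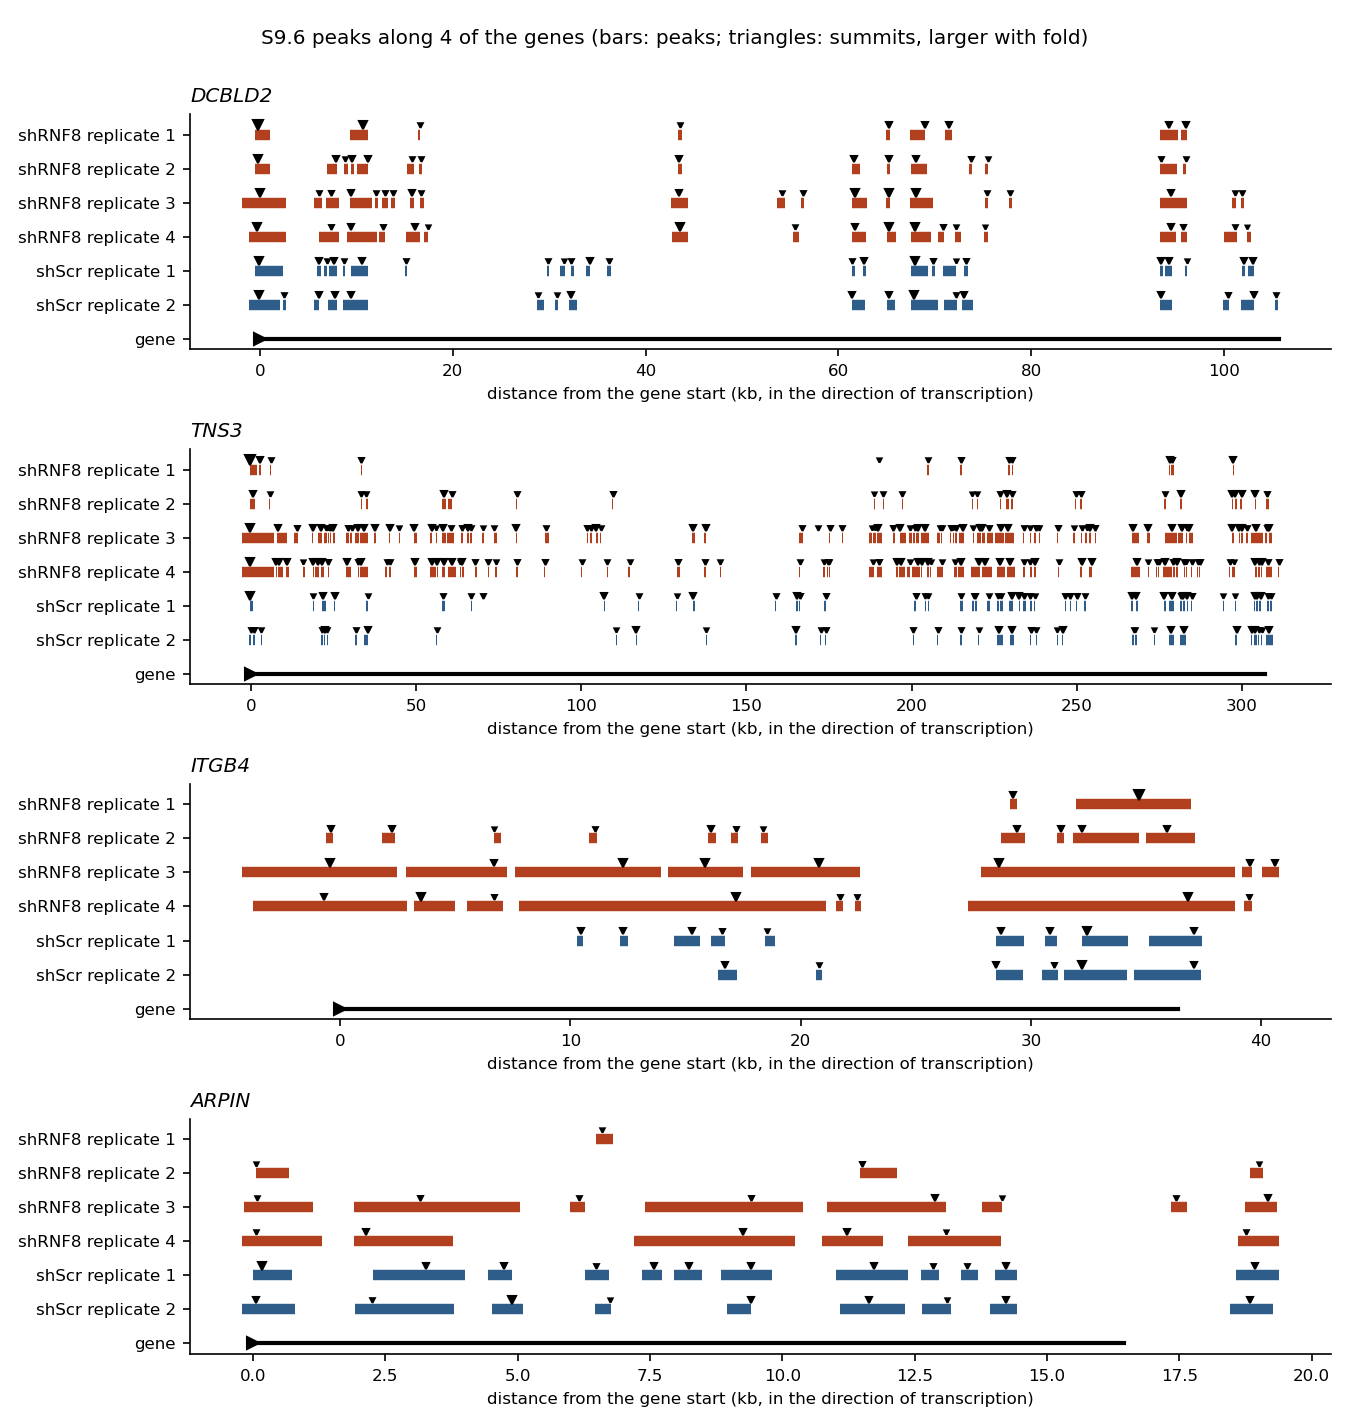
S9.6 peaks (bars) and their summits (triangles, larger with fold) along DCBLD2, TNS3, ITGB4 and ARPIN in the 4 shRNF8 libraries (red, upper rows) and the 2 shScr libraries (blue, lower rows), against distance from the gene start in kb, with the gene as a black line. DCBLD2 and TNS3 have a peak at the start in all 6 libraries, peaks of shRNF8 replicates 3 and 4 cover most of ITGB4, and ARPIN has 12 and 9 peaks in the shScr libraries and 1 to 8 in the shRNF8 libraries.

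The remaining genes had few peaks. CDH11, the gene with the largest rise, had 1, 0, 2 and 2 peaks in shRNF8, against 0 and 0 in shScr (difference 0.278 per 10000, exact permutation p = 0.267). Of these, 3 lay within 1000 bp of the start, with folds of 4.83, 4.48 and 4.61 in shRNF8 replicates 1, 3 and 4, but their summits stood 423 bp before and 277 and 910 bp after the start and the peaks did not share a base. A start peak in at least 3 of 4 shRNF8 and 0 of 2 shScr libraries was found in CDH11 and ITGB4 among the 10, and in 3.14% of genes tested in RNA. For CDH11 this rests on counting by summits, since a peak at chr16:65122938-65123496, with its summit farther than 1000 bp before the start, was called in shRNF8 replicate 1 (fold 4.38) and in shScr replicate 1 (fold 3.61). CDH11 was higher and ITGB4 lower in mRNA.

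MYLK had 1, 0, 1 and 0 peaks in shRNF8, against 4 and 2 in shScr. Its groups did not overlap (difference -0.538 per 10000, exact permutation p = 0.0667, adjusted p = 0.727), while its mRNA was higher in shRNF8. All but one of its peaks lay between 245006 and 265046 bp from the start of this gene of 272007 bp. The RefSeq start of its promoter window, at 263754 bp, lies in the same stretch. ADAMTS2 had 0, 1, 0 and 0 peaks in shRNF8, against 3 and 0 in shScr, and CADM1 1, 0, 0 and 0 in shRNF8, against 0 and 0 in shScr. CD24 had 1 peak in shRNF8 replicate 2, with a fold of 3.93, and 1 in shScr replicate 1, with a fold of 7.64. At this number of peaks a difference was not detectable in ADAMTS2, CADM1, CD24 or TIMP3.

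Over all 13869 genes with a peak, 0 passed an adjusted p of 0.05 in this exact permutation test, and 0 had an unadjusted p under 0.05, since the design cannot reach it. The median difference over these genes was -0.000914 per 10000. Set side by side, the 6 genes with higher mRNA in shRNF8 had differences in S9.6 peaks per 10000 of 0.278 (CDH11), 0.0773 (CADM1), -0.0282 (CD24), -0.829 (DCBLD2) and -0.538 (MYLK), with TIMP3 at 0 peaks. The 4 genes with lower mRNA had 0.0761 (ITGB4), 1.12 (TNS3), -1.38 (ARPIN) and -0.231 (ADAMTS2). Both signs occurred in both sets. The RNA and DRIP libraries are separate samples, so the values of a gene in the 2 assays were compared by group and not by library.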

How the data were processed

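The 10 genes and the gene lists were chosen with earlier results of these data known. Groups and replicate numbers came from the sample titles, and files of 18 of 21 samples were used; the 3 inputs were not analysed here. The deposited RNA table holds raw counts of read pairs per gene, made by the authors with featureCounts without a strand option on an hg38 annotation, per the file headers. The authors deposited 1 peak list per DRIP library, with the fold of each peak over local background (a linear ratio), -log10 of its p-value and q-value, and a score. Tools named without roles in the submitters' processing notes are MACS2 2.2.7.1, STAR 2.7.9a, Bowtie2 2.2.6, Subread 2.0.1, Trim Galore 0.6.6, Picard 2.10.9, SAMtools 1.14 and deepTools 3.5.1.

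Counts were filtered with filterByExpr, scaled by TMM and tested with glmQLFit (robust) and glmQLFTest of edgeR 4.0.16 in R 4.3.3, with the group as the only term and Benjamini-Hochberg adjustment over 14018 genes. The biological coefficient of variation was 12.39%. TPM divides counts by the exon length in the table. Peaks on chromosomes 1 to 22 and X were analysed in Python 3.11.15 with SciPy 1.17.1 and pandas 2.3.3. A start peak has its summit within 1000 bp of the gene start, and peaks sharing at least 1 bp were merged into regions. Only the 24983 genes with 1 locus there entered. Group differences were tested by exact permutation, adjusted over all genes. Named genes are the 10, RNF8 and, for each list, up to 3 called genes with the smallest p, or 2 where none was called. The result of 1 such gene is not reported here. Named regions are those at gene starts, those called in all libraries and those in 4 shRNF8 and 0 shScr libraries; the examples of the last 2 kinds, and regions in 0 shRNF8 and 2 shScr libraries, were chosen after their values were seen, as were marker genes. The scripts were tested on simulated data. The simulated RNA counts had the same spread for all genes and no library that stood apart, so they do not check the fits for such a library. Alternatives were other scalings, no filter, DESeq2 1.42.0, limma-voom (limma 3.58.1), the replicate number as a block, each library left out, a stricter -log10 q of 5, other windows and unscaled peak counts.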

Additional observations from a re-analysis of the deposited data

Results flagged for a closer look

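In the 4 shRNF8 S9.6 libraries, 1 library stood apart from the other three in the peaks of CADM1 (replicate 1), CD24 (replicate 2) and ADAMTS2 (replicate 2), with the gap to the nearest library equal to the whole range (1.0) in each. In all 3 genes this was 1 peak in that library and 0 in the others of the group. The cutoff of this flag lies below 1.0. Chance passes that cutoff in about 5% of groups when values are continuous, and counts of 0 and 1 are not.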

How the results depend on the processing

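The 10 genes were chosen on this contrast, so their values in other fits say how the choice depends on the setting and test nothing about the genes. Of 130 such values (each gene in each fit) 0 changed sign and 30 did not pass an adjusted p of 0.05. ADAMTS2 and ITGB4 missed it with limma-voom, with library size only or without any 1 library other than shScr replicate 1, and ITGB4 also with upper-quartile scaling. Without shRNF8 replicate 3, 9 of the 10 did not pass, CADM1 excepted, and without shRNF8 replicate 1 or 2, 5 did not. Over all genes the 356 calls became 648 without a filter, 852 with DESeq2 and 46 to 3865 with 1 library left out, the highest without shScr replicate 1 and the lowest without shRNF8 replicate 3. The 10 calls in the lists became 20, 22 and 1 to 68, where the 68 hold 1 gene tested only without shScr replicate 1 beside the 67 among the 209 list genes tested in all libraries. Replicate numbers gave no sign of pairing the RNA samples. The correlations of same-numbered libraries, each centred on its group, were -0.0544, 0.108 and -0.233, against -0.192 to 0.203 for differently numbered libraries. With 3 libraries per group these cannot exclude a pairing. With the replicate block 501 genes passed and 15 in the lists. For DRIP the labels do not say that numbers pair the libraries, and the 2 numbers that both groups share leave an exact p of at least 0.5. With the replicate block, an alternative chosen after seeing the data, the differences rested on replicates 1 and 2 alone and were -4.11 for TNS3, -1.79 for ARPIN, -0.943 for DCBLD2, -0.51 for MYLK and 0.233 for ITGB4, and the TNS3 start fold differed by 0.69.

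Start peaks in all libraries were found in 2 of the 10 genes, and in 1 with a -log10 q of at least 5, where TNS3 lost its peak in shScr replicate 2. Loci without overlap of the groups numbered 2, and 2 to 4 with 1 library left out (4 without shRNF8 replicate 2 and 4 without shScr replicate 2), and 5 without shRNF8 replicates 1 and 2, an alternative chosen after seeing the data. Over all 13869 genes with a peak the share without overlap was 15.5% with all 6 libraries. It was not computed with libraries left out, where groups separate more easily, so these higher counts cannot be read as a stronger difference. The ITGB4 difference in peaks per 10000 turned to -0.0850 with the stricter q, -0.0681 over the gene body, -0.0611 without shScr replicate 2 and -0.0804 without shRNF8 replicates 1 and 2, was -0.250 in peaks as counted, and ran from -0.411 (without shRNF8 replicate 2) to 0.459 with 1 library left out. That of TNS3 ran from -0.661 (without shRNF8 replicate 3) to 3.47 with 1 library left out, was -0.585 without shRNF8 replicate 4 and turned to -4.11 without both, and was 6.35 without replicates 1 and 2. The log2 difference of its start fold ran from 0.24 (without shScr replicate 2) to 1.30. The ARPIN difference was -1.85 per 10000 with the stricter q and -6.0 in peaks as counted (exact permutation p = 0.133 in both). Without shRNF8 replicate 4 it was -1.46 per 10000 (exact permutation p = 0.2, from fewer splits). The log2 difference of the DCBLD2 start fold ran from -0.04 (without shRNF8 replicate 1) to 0.15, and was -0.04 without replicates 1 and 2. The cause was not tested.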
